A study of Mus musculus with 6 samples.

Results

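The thrombospondins and the other matricellular matrix genes form a set of 10 genes that was chosen by gene name: *Thbs1*, *Thbs2*, *Thbs3*, *Fn1*, *Sparc*, *Postn*, *Tnc*, *Spp1*, *Fbln1* and *Fbln2*. All 10 were found among the 54331 genes of the deposited table, and all 10 were among the 15382 genes that were tested (a mean of at least 1 TPM, a length-adjusted share of all transcripts of a library). Of the 10 genes, 6 fell in the OSKA + 4OHT group (1.97% of all tested genes fell), 0 rose (3.52% of all rose) and 4 did not pass the test at an adjusted p under 0.05. When OSKA + 4OHT well 1 or well 2 was left out, only *Thbs1*, *Tnc* and *Fbln2* still passed. The falls ranged from 5.379-fold for *Thbs1* to 1.507-fold for *Sparc*, whereas *Spp1* and *Postn* overlapped between the groups.

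Both groups were OE-MEFs, mouse embryonic fibroblasts from male embryos at E13.5 on a mixed C57BL/6, DBA/2 and ICR background that carry an *Oct4*-driven EGFP transgene, with cells of several embryos mixed. Both had been transduced by retroviruses with Oct4, Sox2, Klf4 and AKT-MER, a myristoylated AKT fused to a modified estrogen receptor that is activated by 4-hydroxytamoxifen (4OHT). From 3 dpi the cells of 3 wells received 4OHT (OSKA + 4OHT group) and those of 3 wells received the ethanol vehicle (OSKA − 4OHT group). RNA was taken from whole wells at 10 dpi, so each library is a mixture of cells at different stages of reprogramming, and the comparison asks how matrix transcripts differ when AKT is active. All wells came from 1 split of transduced cells, so the p-values measure the spread between wells only. No library here had 4OHT without AKT-MER, so AKT activation and 4OHT itself cannot be told apart. In bulk RNA, fewer cells of a type and less RNA per cell cannot be told apart either.

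Matricellular proteins are secreted into the extracellular matrix, where they act less as building material than as adjustable signals between matrix, growth factors and cell-surface receptors. Thrombospondins, tenascin-C, SPARC, periostin and osteopontin bind integrins, collagens or growth factors and are known from wound repair and fibrosis, where they tune cell adhesion and the activation of latent TGF-β. Fibronectin and the fibulins are structural partners of the same network: fibronectin forms the fibrils on which fibroblasts pull, and fibulins join elastic fibres and basement membranes. Cultured fibroblasts make large amounts of several of them, and loss of the fibroblast programme is an early part of reprogramming.

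The libraries held between 15814 and 18230 genes above 0 TPM. Their depth is not given by TPM values. The steps between low values gave a rough relative depth of 0.507, 1 and 0.547 for OSKA − 4OHT wells 1 to 3 and of 0.852, 0.921 and 0.803 for OSKA + 4OHT wells 1 to 3. That scale is uncertain, since most low values did not lie near whole reads, and the reads per gene derived from it are rough orders of size. They came to about 15 to 125 per well for *Fbln1*, the least expressed gene of the set, to about 29 to 88 for *Thbs3* and to estimates of 560 or higher for the other 8 genes. Across all tested genes, 441 (2.87%) rose and 210 (1.37%) fell by more than 2-fold at an adjusted p-value under 0.05, and without the limit on fold 542 (3.52%) rose and 303 (1.97%) fell. The wells of the groups did not overlap for 2788 genes that were higher (18.1%) and for 1543 genes that were lower (10.0%) in the OSKA + 4OHT group. Differences below are log2 fold changes of TPM + 0.5, and the median over all tested genes was 0.14.

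**Figure D1:**
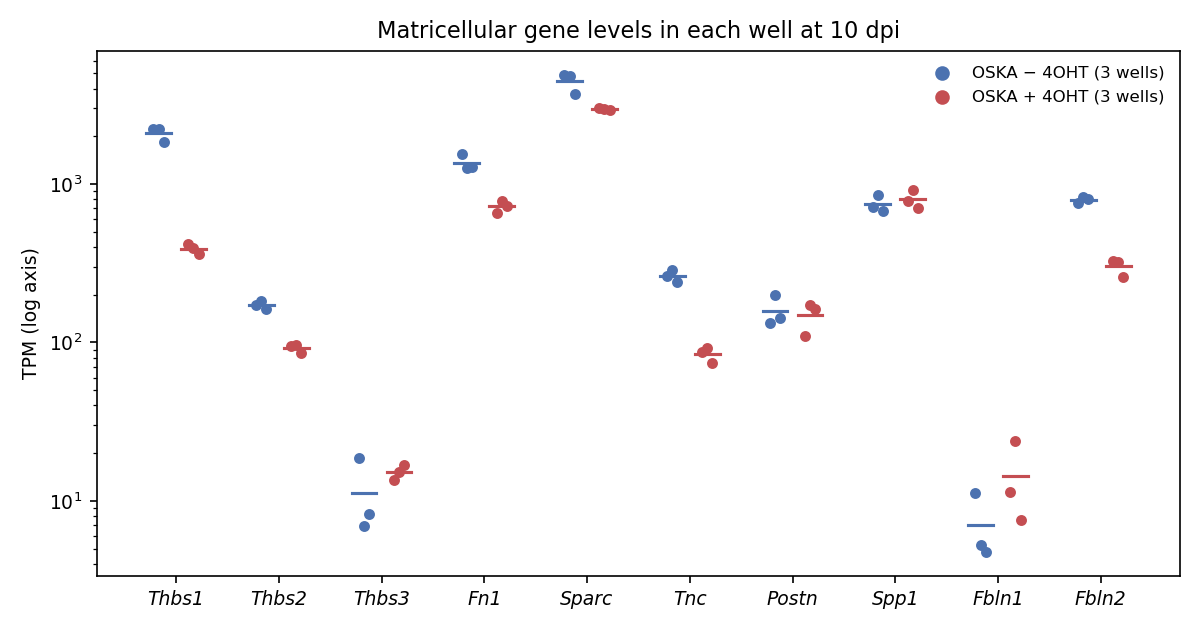
Level of each of the 10 genes in every well (points, TPM on a log axis) with the group mean (bar), 3 wells per group. The wells of the groups are apart for *Thbs1*, *Thbs2*, *Fn1*, *Sparc*, *Tnc* and *Fbln2* and overlap for *Thbs3*, *Postn*, *Spp1* and *Fbln1*.

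*Thbs1* encodes thrombospondin-1, a trimeric glycoprotein that binds CD36 and CD47 and can activate latent TGF-β. The gene lies at chr2:118111876-118127133 on the plus strand (GRCm38, GENCODE M21) with 2 annotated transcripts. Its level was 2225, 2233 and 1833 TPM in the OSKA − 4OHT wells and 415, 392 and 362 TPM in the OSKA + 4OHT wells. Every OSKA + 4OHT well was thus far under every OSKA − 4OHT well, and *Thbs1* moved from the 40th to the 312th most abundant gene by group mean. The mean fell from 2097 ± 229 to 390 ± 26.4 TPM (SD, n = 3), a log2 fold change of -2.42 (SE 0.12, 95% interval -2.70 to -2.14, adjusted p = 0.00298, limma-trend with Benjamini-Hochberg adjustment). The adjusted p stayed between 0.00664 and 0.0158 when any 1 well was left out.

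A lincRNA annotated on the opposite strand within *Thbs1*, *Gm29233* (chr2:118123451-118124047), was looked at because it overlaps and after its values were seen. It was at 93.8, 136 and 126 TPM in the OSKA − 4OHT wells and at 24.6, 34.7 and 13.9 TPM in the OSKA + 4OHT wells. Its log2 fold change was -2.33 (SE 0.35, adjusted p = 0.0182). The library kit marks strand, but the strand setting of the quantification is not given in the sources used here, so reads from the stretch where both overlap cannot be told apart. That stretch is a small part of *Thbs1*: 1.62% of the 50-base words of its longest transcript were shared with *Gm29233* in antisense, and none with another gene in sense. For the genes below, the longest transcript was likewise used.

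*Thbs2* encodes thrombospondin-2, which has the same trimeric build, lacks the TGF-β-activating sequence and is best known for restraining angiogenesis and shaping collagen fibrils. It is located at chr17:14665500-14694235 on the minus strand. Its level was 171, 182 and 161 TPM without 4OHT and 95.3, 95.9 and 86.2 TPM with 4OHT. The groups did not overlap, and the fall was smaller than for *Thbs1*. The mean went from 172 ± 10.2 to 92.5 ± 5.46 TPM (1.855-fold lower), with a log2 fold change of -0.89 (SE 0.12, interval -1.17 to -0.60, adjusted p = 0.0134). The adjusted p was 0.0577, 0.0627 and 0.0582 without OSKA − 4OHT well 2, OSKA + 4OHT well 1 and OSKA + 4OHT well 2, respectively.

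*Thbs3* encodes a pentameric thrombospondin without the domains that bind CD36 or TGF-β. The gene lies at chr3:89215180-89226837 on the plus strand. It was measured at 18.6, 6.99 and 8.28 TPM without 4OHT and at 13.6, 15.2 and 16.8 TPM with 4OHT. OSKA − 4OHT well 1 was the highest of all 6 wells and the other two wells of that group were the lowest, so the groups overlapped. The log2 fold change of 0.54 had a 95% interval of -0.36 to 1.44 and did not pass the test (adjusted p = 0.476). With 1 well left out it lay between 0.27 (without OSKA − 4OHT well 2) and 0.95 (without OSKA − 4OHT well 1, adjusted p = 0.0973). Of its 50-base words, 3.44% were shared in antisense with its neighbour *Mtx1*, which also did not pass (adjusted p = 0.515). The TPM of *Thbs1*, *Thbs2* and *Thbs3* together went from 2280 ± 240.1 to 497 ± 29.8 (SD, n = 3). *Thbs1* made up 92.1%, 92.2% and 91.5% of that sum without 4OHT and 79.2%, 77.9% and 77.9% with 4OHT, and the ratio of *Thbs1* to *Thbs2* went from 12.2 ± 0.813 to 4.21 ± 0.133.

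*Fn1* encodes fibronectin, the dimeric adhesive glycoprotein that integrins assemble into fibrils. The gene lies at chr1:71585520-71653200 on the minus strand and has 17 annotated transcripts, which were summed. Its level was 1539, 1265 and 1275 TPM without 4OHT and 658, 781 and 730 TPM with 4OHT. All OSKA + 4OHT wells were lower than all OSKA − 4OHT wells. The mean went from 1360 ± 156 to 723 ± 61.9 TPM (1.881-fold lower), with a log2 fold change of -0.91 (SE 0.12, interval -1.20 to -0.62, adjusted p = 0.0128). Without OSKA + 4OHT well 1 or well 2 the adjusted p was 0.0630 or 0.0503. In antisense, 2.42% of its 50-base words were shared with *Apol7d*, which was at 6.54 TPM at most.

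*Tnc* encodes tenascin-C, a hexameric glycoprotein of wounds and embryonic mesenchyme that loosens the hold of cells on fibronectin. The gene lies at chr4:63959785-64047015 on the minus strand. Its level was 264, 287 and 239 TPM without 4OHT and 86.5, 92.0 and 74.0 TPM with 4OHT. The groups were well apart, and the least of the OSKA − 4OHT wells was above every OSKA + 4OHT well. The mean fell 3.13-fold, from 263 ± 23.8 to 84.2 ± 9.22 TPM (log2 fold change -1.64, SE 0.14, interval -1.98 to -1.31, adjusted p = 0.00376). With any 1 well left out the adjusted p lay between 0.0152 and 0.0276. In antisense, 1.15% of its 50-base words were shared with *8030451A03Rik*, which was at 5.02 TPM at most.

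*Sparc* encodes SPARC (osteonectin), a small calcium- and collagen-binding protein that reduces cell spreading. Located at chr11:55394500-55423183 on the minus strand, it was the most abundant of the set in both groups. Its level was 4898, 4804 and 3720 TPM without 4OHT and 3004, 2962 and 2941 TPM with 4OHT. The OSKA + 4OHT wells had a coefficient of variation (SD over mean) of 1.07%. They lay under all OSKA − 4OHT wells, of which well 3 was the lowest. The mean went from 4474 ± 654 to 2969 ± 31.9 TPM (1.507-fold lower, log2 fold change -0.58, SE 0.12, interval -0.87 to -0.29, adjusted p = 0.0461). This was the weakest of the 6 falls. With 1 well left out, the adjusted p was under 0.05 only without OSKA − 4OHT well 3 (0.0201), and without OSKA − 4OHT well 1 or 2 or OSKA + 4OHT well 1, 2 or 3 it lay between 0.110 and 0.148.

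*Postn* encodes periostin, a fasciclin-domain protein that links collagen, fibronectin and tenascin-C. It is located at chr3:54361109-54391037 on the plus strand. Its level was 134, 200.1 and 142 TPM without 4OHT and 110.3, 172 and 162 TPM with 4OHT. The wells of both groups covered nearly the same range. The means were 159 ± 36.1 and 148 ± 33.2 TPM, and the log2 fold change of -0.10 had a 95% interval of -0.67 to 0.47 (adjusted p = 0.840). The sign of this value turned without OSKA − 4OHT well 2 (0.08) or OSKA + 4OHT well 1 (0.10). With *Tnc* lower and *Postn* in the same range, the ratio of *Postn* to *Tnc* was 0.506, 0.697 and 0.595 without 4OHT and 1.27, 1.87 and 2.18 with 4OHT.

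*Spp1* encodes osteopontin, a phosphorylated integrin and CD44 ligand made by bone cells, macrophages and activated fibroblasts. The gene lies at chr5:104435118-104441050 on the plus strand. Its level was 713, 850 and 673 TPM without 4OHT and 785, 922 and 703 TPM with 4OHT. Each group had wells between those of the other. The means were 745 ± 92.8 and 803 ± 111 TPM, with a log2 fold change of 0.11 (interval -0.24 to 0.45, adjusted p = 0.711). The interval leaves out a change of 2-fold in either direction for *Spp1* and for *Postn*, whereas those of *Thbs3* and *Fbln1* reach beyond a 2-fold rise. Scaling each well by its median log ratio gave a log2 fold change of -0.04 for *Spp1*. Of its 50-base words, 9.05% were shared with *Gm42793*, which was listed at 0.975 TPM at most.

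*Fbln2* and *Fbln1* encode fibulins, calcium-binding glycoproteins of basement membranes and elastic fibres that bind fibronectin. *Fbln2* (chr6:91212455-91272540, plus strand) was at 759, 832 and 802 TPM without 4OHT and at 325, 322 and 260.1 TPM with 4OHT. The groups did not overlap, and its mean fell 2.639-fold, from 798 ± 36.6 to 302 ± 36.5 TPM (log2 fold change -1.40, SE 0.12, interval -1.70 to -1.11, adjusted p = 0.00392). *Fbln1* (chr15:85205949-85286535, plus strand) was at 11.2, 5.29 and 4.77 TPM without 4OHT and at 11.3, 23.8 and 7.62 TPM with 4OHT. The wells overlapped, OSKA + 4OHT well 2 was the highest, and the log2 fold change of 0.90 had a wide interval of -0.30 to 2.11 (adjusted p = 0.360). With 1 well left out it lay between 0.47 (without OSKA + 4OHT well 2) and 1.26 (without OSKA − 4OHT well 1). *Fbln2* was 131 ± 55.1 times the level of *Fbln1* without 4OHT and 25.4 ± 10.7 times with 4OHT.

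**Figure D2:**
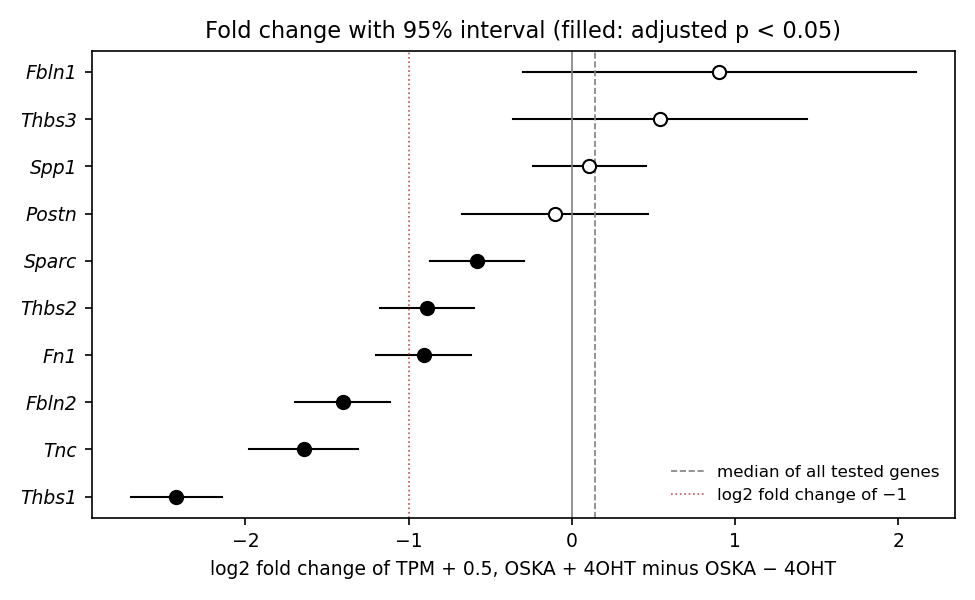
Log2 fold change of TPM + 0.5 (OSKA + 4OHT minus OSKA − 4OHT, points) with its 95% interval (lines) for the 10 genes, where filled points passed an adjusted p of 0.05. The values run from -2.42 for *Thbs1* to 0.90 for *Fbln1*, and the intervals of *Thbs1*, *Tnc* and *Fbln2* lie wholly under -1.

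Of the 10 genes, 3 (*Thbs1*, *Tnc* and *Fbln2*) fell by more than 2-fold, against 1.37% of all tested genes. At the adjusted p alone, 6 of 10 fell, against 1.97%, and the wells of 6 of 10 were lower without overlap, against 10.0%. With OSKA + 4OHT well 1 or well 2 left out, only *Thbs1*, *Tnc* and *Fbln2* stayed under an adjusted p of 0.05. The count of genes that rose was 0 of 10 in limma-trend, against 3.52%. At an unadjusted p under 0.05, 0 of 10 were higher (14.1% of all tested genes) and 6 of 10 lower (7.18%). The median log2 fold change of the 10 genes was -0.73, which is 0.88 under that of all tested genes. When the replicate spread is set beside this, the 6 genes that fell varied by 1.07% to 14.6% between wells of a group, *Spp1* by 12.4% and 13.8%, *Postn* by 22.8% and 22.4%, and the scarce *Thbs3* and *Fbln1* by 10.4% to 59.6%.

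The order of levels changed within the set. Without 4OHT it ran *Sparc*, *Thbs1*, *Fn1*, *Fbln2*, *Spp1*, *Tnc*, *Thbs2*, *Postn*, *Thbs3* and *Fbln1*, with overlapping wells between *Fbln2* and *Spp1*, between *Thbs2* and *Postn* and between *Thbs3* and *Fbln1*. With 4OHT it ran *Sparc*, *Spp1*, *Fn1*, *Thbs1*, *Fbln2*, *Postn*, *Thbs2*, *Tnc*, *Thbs3* and *Fbln1*, with overlapping wells between *Spp1* and *Fn1*, between *Thbs2* and *Tnc* and between *Thbs3* and *Fbln1*. *Spp1* was at 0.463, 0.672 and 0.528 times the level of *Fn1* without 4OHT and at 1.19, 1.18 and 0.963 times with 4OHT. The 10 genes together made up 1.07%, 1.07% and 0.886% of all TPM without 4OHT and 0.550%, 0.578% and 0.534% with 4OHT. *Sparc* was the largest part of that sum in every well, at 44.2% ± 1.95 without and 53.6% ± 2.07 with 4OHT. The part of *Thbs1* went from 20.8% ± 0.135 to 7.04% ± 0.436 and that of *Spp1* from 7.41% ± 0.683 to 14.5% ± 1.41 (SD, n = 3).

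**Figure D3:**
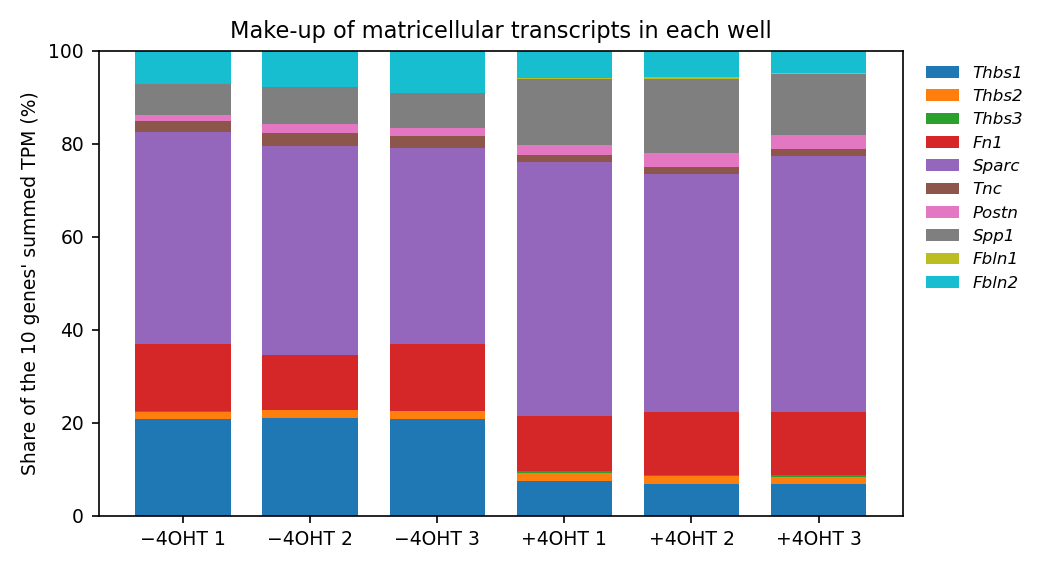
Share of each of the 10 genes in their summed TPM (%, stacked to 100) in each well, 3 wells per group. *Thbs1* takes 20.7% to 20.9% of the sum in the OSKA − 4OHT wells and 6.78% to 7.54% in the OSKA + 4OHT wells, while the parts of *Sparc* and *Spp1* are larger with 4OHT.

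Promoter sequence from RefSeq (GRCm38.p6) was matched for 8 of the 10 genes (all but *Thbs1* and *Fn1*), in 12 windows of 250 bases before an annotated start. Both strands were searched for letters linked to regulators of fibroblast matrix genes: the TEAD motif GGAATG, the AP-1 motif TGANTCA and the CArG box of serum response factor, which 12.6%, 6.75% and 1.47% of the 32851 windows of all genes hold. None of the 12 windows held one of the 3, which says only that these letters are not in these windows. The letters TATAAA, those of a core promoter motif, are held by 12.4% of all windows. They were found in 5 windows of 4 genes, and the windows of *Tnc* share 1 match. The 4 genes include 2 that fell (*Tnc* and *Thbs2*) and 2 that did not pass (*Postn* and *Spp1*), so their windows are shown together, 5′ to 3′ in the direction of the gene, with the match in capitals. Counted from the start, with -1 as the base before it, the match begins at -126 in *Tnc*, at -126 in *Thbs2* (on the opposite strand, hence TTTATA), at -26 in *Postn* and at -211 in *Spp1*. Of the 4 genes, only *Postn* thus has its match close to the start. Whether any of the matches acts in these cells was not tested. The windows are chr4:64047016-64047265 (minus), chr17:14694263-14694512 (minus), chr3:54360857-54361106 (plus) and chr5:104434861-104435110 (plus).
Tnc: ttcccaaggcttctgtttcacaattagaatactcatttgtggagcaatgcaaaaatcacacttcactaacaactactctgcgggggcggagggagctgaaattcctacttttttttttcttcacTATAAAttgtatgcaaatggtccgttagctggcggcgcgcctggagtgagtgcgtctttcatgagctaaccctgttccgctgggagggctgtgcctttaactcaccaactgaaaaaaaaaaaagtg
Thbs2: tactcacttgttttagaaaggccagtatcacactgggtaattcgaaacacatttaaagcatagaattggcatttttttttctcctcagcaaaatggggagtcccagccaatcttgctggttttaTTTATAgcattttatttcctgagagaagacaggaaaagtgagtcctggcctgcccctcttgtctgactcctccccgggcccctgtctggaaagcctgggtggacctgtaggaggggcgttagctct
Postn: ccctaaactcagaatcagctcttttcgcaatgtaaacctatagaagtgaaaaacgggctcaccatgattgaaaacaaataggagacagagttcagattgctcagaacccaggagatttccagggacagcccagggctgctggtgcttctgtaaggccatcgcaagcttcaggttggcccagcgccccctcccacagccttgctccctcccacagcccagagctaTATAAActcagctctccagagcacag
Spp1: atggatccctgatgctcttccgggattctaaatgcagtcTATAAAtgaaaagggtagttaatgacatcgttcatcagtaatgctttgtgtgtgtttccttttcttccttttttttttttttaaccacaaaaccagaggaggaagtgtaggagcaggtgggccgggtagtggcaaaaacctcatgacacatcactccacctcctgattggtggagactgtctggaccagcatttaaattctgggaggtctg

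For each gene, the genes with the most similar pattern over the 6 wells were found by the root mean square difference of log2 values, each gene centred on its own mean. For *Thbs1* these were *Col6a5* (0.0922), *Tnfrsf11b* (0.112) and *Acta2* (0.122), that is, a collagen VI chain, the secreted decoy receptor osteoprotegerin and smooth muscle actin. For *Tnc* they were *Pdgfrb* (0.0544), *Igf1r* (0.0742) and *Mamld1* (0.0924), the first of which encodes a growth factor receptor of mesenchymal cells. *Fbln2* was nearest to *Glt8d2* (0.101), *Nalcn* (0.104) and *Fam110c* (0.105). *Fn1* was nearest to *Kctd10* (0.0599), *Prss23* (0.0836) and *Rab7b* (0.086), *Thbs2* to *Lpp* (0.0564), *Plec* (0.0572) and *Ctsl* (0.0575), and *Sparc* to *Wwtr1* (0.0513), *Zbtb1* (0.0562) and *Msn* (0.0567). Of these neighbours, *Rab7b*, *Wwtr1* and *Zbtb1* did not pass in limma-trend (adjusted p = 0.0605, 0.0632 and 0.241). *Col6a5*, *Glt8d2*, *Nalcn*, *Kctd10*, *Lpp* and *Plec* passed, but in no fit with 1 well left out. The log2 fold change of *Col6a5* ran from -3.06 to -1.38 over the alternative settings. Of those among the 10 genes that did not pass, *Spp1* was nearest to *Atp5a1* (0.0346), *Postn* to *Asap3* (0.0865), *Thbs3* to *Mapt* (0.108) and *Fbln1* to *Nipal2* (0.226). None of the 10 genes was among the nearest 3 of another.

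The other genes of the pathway were grouped by role. Of 27 relatives of the same families (thrombospondin, CCN, fibulin, SPARC-like, tenascin and similar genes), 16 were tested. Of these, 4 fell by more than 2-fold (1.37% of all tested genes) and 0 rose (2.87%), and the median log2 fold change was -0.40. At an unadjusted p under 0.05, 2 relatives were higher and 5 lower, which include genes that did not pass, against 14.1% and 7.18% of all tested genes. The 11 relatives that were not tested had a mean under 1 TPM, among them the remaining thrombospondin genes *Thbs4*, at 0.285 TPM at most, and *Comp*, at 0.169 TPM at most. *Ccn2*, a matricellular growth factor ligand induced by TGF-β, was at 823, 751 and 662 TPM without 4OHT and at 240.4, 273 and 232 TPM with 4OHT (log2 fold change -1.58, SE 0.13, adjusted p = 0.00367). *Ccn4* went from 65.0 ± 4.83 to 17.2 ± 2.71 TPM (-1.89, adjusted p = 0.00471). *Fbln5*, a fibulin of elastic fibres, went from 917 ± 42.0 to 438 ± 35.9 TPM (-1.07, adjusted p = 0.00517). *Ccn1* went from 512 ± 85.0 to 245 ± 30.9 TPM (-1.06, adjusted p = 0.0220), and without OSKA − 4OHT well 1 or 2 or any 1 of the OSKA + 4OHT wells its adjusted p lay between 0.0610 and 0.0815. The count of 4 was 2 without OSKA + 4OHT well 3.

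All 18 genes for cell-surface receptors of these proteins were tested (integrins, syndecans, CD36, CD44, CD47 and others). None passed the 2-fold limit in either direction, where 2.87% of all tested genes rose and 1.37% fell. At the adjusted p alone, 3 fell (1.97% of all tested genes), and the median log2 fold change was -0.02. The unadjusted p was under 0.05 for 1 receptor gene that was higher (14.1% of all tested genes) and 7 that were lower (7.18%), of which only the 3 passed. *Lrp1*, the endocytic receptor that clears thrombospondins, went from 388 ± 17.8 to 200.02 ± 17.96 TPM (log2 fold change -0.96, adjusted p = 0.0100). *Itgav*, the αv integrin chain, went from 129 ± 8.32 to 68.3 ± 7.71 TPM (-0.92, adjusted p = 0.0195). *Itgb1*, the β1 integrin chain, went from 772 ± 97.3 to 439 ± 56.9 TPM (-0.81, adjusted p = 0.0321). With 1 well left out, *Lrp1* lost its call only without OSKA + 4OHT well 1 (0.0556). *Itgav* and *Itgb1* kept theirs only without OSKA − 4OHT well 3, and without OSKA − 4OHT well 1 or 2 or OSKA + 4OHT well 1, 2 or 3 their adjusted p lay between 0.0515 and 0.105. The thrombospondin-1 receptors *Cd47* and *Cd36*, named after their values were seen, did not pass: *Cd47* was at 78.2 ± 14.1 and 89.6 ± 20.5 TPM (log2 fold change 0.18, interval -0.37 to 0.74) and *Cd36* at 11.7 ± 1.73 and 6.25 ± 2.21 TPM (-0.89, interval -1.58 to -0.19, adjusted p = 0.145). The osteopontin and hyaluronan receptor *Cd44*, named likewise, was at 182 ± 9.50 and 185 ± 7.43 TPM (0.02, interval -0.23 to 0.28). Without OSKA + 4OHT well 2, 1 receptor gene passed the 2-fold limit.

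All 15 matrix partners (cross-linking enzymes, elastic fibre, basement membrane and latent TGF-β-binding genes) were tested, of which 5 fell by more than 2-fold (1.37% of all tested genes), 0 rose (2.87%), and the median was -0.35. The unadjusted p was under 0.05 for 1 partner that was higher (14.1% of all tested genes) and 6 that were lower (7.18%), of which only the 5 passed. *Lox*, the lysyl oxidase that cross-links collagen and elastin, was at 704, 635 and 525 TPM without 4OHT and at 156, 152 and 158 TPM with 4OHT (log2 fold change -1.99, SE 0.13, adjusted p = 0.00342). *Loxl1*, its relative for elastic fibres, went from 31.6 ± 5.97 to 11.6 ± 1.35 TPM (-1.41, adjusted p = 0.0174). *Eln*, elastin itself, went from 27.9 ± 7.13 to 7.93 ± 0.279 TPM (-1.73, adjusted p = 0.0120). *Nid1*, a basement membrane linker, went from 256 ± 31.9 to 124 ± 5.86 TPM (-1.03, adjusted p = 0.0118). The fifth, named after its values were seen, was the latent TGF-β-binding gene *Ltbp4* (-2.80, adjusted p = 0.0288). It was at 14.6, 27.0 and 52.8 TPM without 4OHT and at 3.36, 4.85 and 2.68 TPM with 4OHT. Its relative *Ltbp1*, named likewise, was higher without overlap (48.8 ± 6.68 and 75.4 ± 10.8 TPM, log2 fold change 0.62) and did not pass (adjusted p = 0.103). The count of 5 was 2, 1, 1 and 3 without OSKA − 4OHT well 2 and OSKA + 4OHT wells 1, 2 and 3, respectively, and *Lox* kept its call in each of them.

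**Figure D4:**
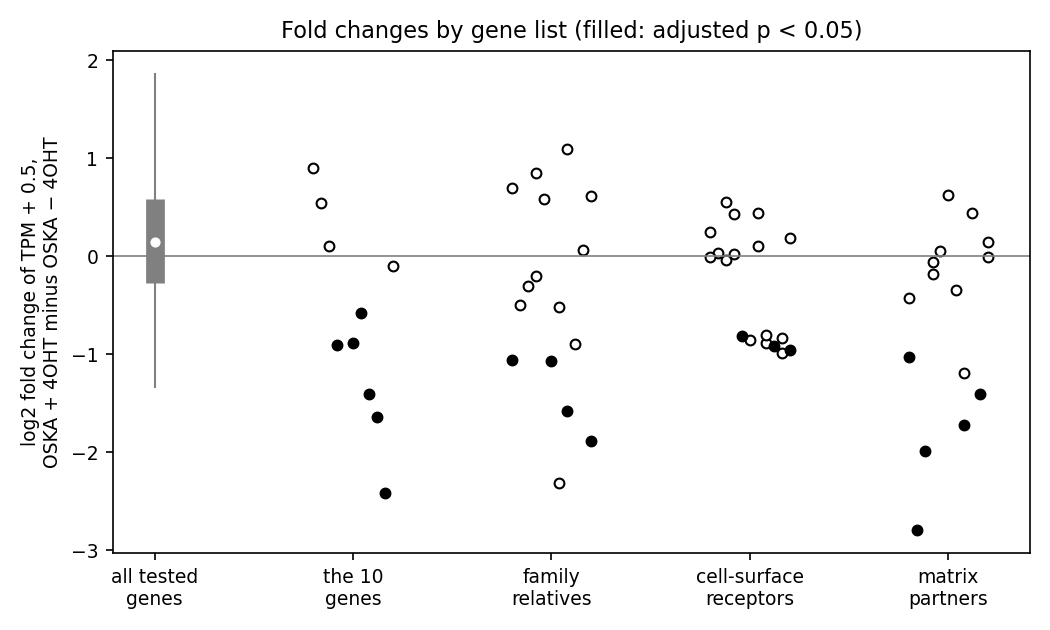
Log2 fold change of TPM + 0.5 (OSKA + 4OHT minus OSKA − 4OHT) of each tested gene in the 10-gene set, its 16 tested family relatives, 18 receptors and 15 matrix partners, with the 5th, 25th, 50th, 75th and 95th percentiles of all tested genes in grey. Filled points passed an adjusted p of 0.05 and all of them lie under 0.

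Markers of the cells that could be in the wells were read beside these levels. The labelled fibroblasts were present in both groups: the 8 fibroblast markers summed to 6124 to 7943 TPM without and 3967 to 5261 TPM with 4OHT. Of these 8, 2 fell (1.97% of all tested genes), *Col1a2* (1641 ± 145 to 901 ± 155 TPM, adjusted p = 0.0285) and *Pdgfrb* (adjusted p = 0.0113), and 6 did not pass. Among the 6, named after their values were seen, *Vim* (3844 ± 625 and 2668 ± 523 TPM, adjusted p = 0.163), *Col1a1* (979 ± 197 and 610.1 ± 54.1 TPM, adjusted p = 0.0843) and *Prrx1* (266 ± 13.5 and 204 ± 14.9 TPM, adjusted p = 0.111) were lower without overlap. *Thy1* was higher without overlap (179 ± 40.5 and 293 ± 86.7 TPM, adjusted p = 0.203), and *Pdgfra* and *Twist2* overlapped between the groups. With 1 well left out, 0 to 2 fibroblast markers passed (0 without OSKA + 4OHT well 1).

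Of 6 markers of myofibroblasts and smooth muscle 4 fell (1.97% of all tested genes), or 3 to 4 with 1 well left out, and their sum was 1122 to 1263 TPM without and 178 to 252 TPM with 4OHT. *Acta2*, smooth muscle actin, was at 652 ± 73.2 and 116 ± 18.2 TPM. Of 8 macrophage markers 1 fell, against the same 1.97% (*Lyz2*, 95.2 ± 5.63 to 51.8 ± 7.77 TPM, adjusted p = 0.0299), and it passed with 1 well left out only without OSKA + 4OHT well 3. The macrophage sum was 138 to 154 TPM without and 92.8 to 103 TPM with 4OHT, and without *Lyz2* it overlapped, at 43.9 to 60.1 and 42.2 to 55.1 TPM.

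The sums were higher with 4OHT for 5 epithelial markers (31.1 to 71.8 against 150.3 to 166 TPM) and for 6 markers of pluripotent cells (0.917 to 2.60 against 28.2 to 41.5 TPM). Of 5 tested markers in each list 3 rose (3.52% of all tested genes). With 1 well left out the epithelial count was 1, except 3 without OSKA − 4OHT well 3, and the pluripotent count was 1 each time. Of 2 tested osteoblast markers 0 passed in limma-trend (1 higher at an unadjusted p under 0.05), and *Ibsp* was listed at 0. The osteoblast sum of 9.98 to 16.7 against 27.1 to 112 TPM rested on *Alpl* (11.6, 3.17 and 11.9 TPM without and 22.9, 108 and 20.2 TPM with 4OHT), and without it was 4.53 to 6.81 against 3.802 to 8.04 TPM. *Runx2*, the other tested osteoblast marker, was at 5.27 ± 1.08 and 3.20 ± 0.975 TPM (adjusted p = 0.313). Of 2 tested endothelial markers 0 passed (1 higher at an unadjusted p under 0.05, 21.4 to 28.9 against 28.1 to 37.6 TPM for the list). The part of these cells in the levels of the 10 genes was not tested.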

How the data were processed

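RNA from 6 wells (3 per group) was sequenced by the authors as stranded polyA libraries with 50-base single-end reads. The authors trimmed reads with Trim Galore and quantified them with Salmon (versions and annotation release not given in the sources used here). The values deposited are TPM at gene level, which sum to 1000000 in each well, so that counts and depth are lost and a fall of abundant genes raises all others. The deposited table also holds the authors' own edgeR comparison, a log2 fold change and log2 average level, a score (F statistic) and an unadjusted p-value, which were not used.

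The 10 genes, the lists and the tests were chosen with earlier results of these data known. Groups were compared by limma-trend (limma 3.58.1, R 4.3.3) on log2(TPM + 0.5) for genes whose mean reached 1 TPM, with Benjamini-Hochberg adjustment over all 15382 genes, since TPM values cannot enter a count model. A gene fell or rose at an adjusted p under 0.05, and the 2-fold limit is an absolute log2 fold change over 1. In simulated data for this comparison with 200 of 15382 genes changed, 34% of changes of 1.5 and 54% of changes of 2.5 (log2) were recovered with 8 false calls, and 0 genes were called with nothing changed. Relative depth was estimated with Python 3.11.15 and pandas 2.3.3 from genes with 1 annotated transcript of over 600 bases, assuming fragments of 250 bases. Only 36.5% to 41.4% of low values lay near whole reads, where evenly spread values give 30%, so whole reads were not recovered. Named beside the 10 genes were, per list, up to 4 genes per direction with the lowest adjusted p among those that passed. The 3 nearest genes of each member and the leading markers were named as well. Positions come from GENCODE M21 (GRCm38), whereas the release behind the deposited values is not known. Alternatives were 2 other pseudocounts, 2 other filters, 2 scalings, 2 variance models, a replicate block and leaving out each well.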

Additional observations from a re-analysis of the deposited data

How the results depend on the processing

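*Thbs1* and *Tnc* kept an adjusted p under 0.05 in all 15 alternatives, though only just with the replicate block (0.0499 for both). Their log2 fold changes stayed under -1. *Fbln2* lost an adjusted p under 0.05 only with the replicate block (0.0555). *Sparc* lost it in 10 of 15. Whether the replicate numbers of the labels pair the wells could not be decided with 3 wells per group. In their deviations from the group means, same-numbered wells correlated by 0.0235, 0.0341 and 0.0837. Differently numbered wells correlated by -0.062 to 0.0327. With the replicate block, genes called over all tested genes were 31 higher and 16 lower in place of 441 and 210, members called lower were 2 in place of 3, and family relatives and matrix partners called lower were 1 each in place of 4 and 5. Adjusted p under the block was 0.0834 for *Thbs2*, 0.0931 for *Fn1* and 0.121 for *Sparc*. The receptor genes *Lrp1* (0.0814), *Itgav* (0.0857) and *Itgb1* (0.105) lost their calls as well. So did the markers *Col1a2* (0.0983), *Pdgfrb* (0.0648), *Lyz2* (0.116), *Epcam* (0.131), *Krt8* (0.0931) and *Zfp42* (0.127). Scaling each well by its median log ratio, which moved the median of all tested genes by 0.14, gave 5 members called lower (*Thbs2* and *Fn1* past 2-fold as well), 2 receptors called lower and a split of 350 higher (52.9%) and 312 lower in place of 67.7% higher. It turned *Spp1* to -0.037 and *Pecam1*, an endothelial marker at 0.10 in the main comparison, to -0.045. Quantile normalization gave 1 receptor called lower, *Pecam1* at -0.077 and 335 higher (53.1%) against 296 lower. Without the mean-variance trend, 1 family relative was called higher and 3 were called lower in place of 4. The adjusted p was then 0.0559 for *Fn1*, 0.161 for *Sparc*, 0.0592 for *Ccn1*, 0.0524 for *Itgav* and 0.0899 for *Itgb1*. Among markers it was 0.0829 for *Col1a2*, 0.0651 for *Lyz2* and 0.0685 for *Epcam*. Leaving out 1 well at a time gave 2 to 4 family relatives, 0 to 1 receptors and 1 to 5 matrix partners called lower, with all tested genes at 111 to 303 higher and 63 to 127 lower, where fewer samples enter each fit. It moved *Postn* between -0.22 and 0.10, and *Pecam1* between -0.11 and 0.50. The causes of these changes were not tested. *Fbln1* and *Thbs3* had the fewest estimated reads of the set and the widest intervals. A gene that did not pass is not shown to be unchanged.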
